A study of Mus musculus with 4 samples.

Results

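The transcripts described here encode 41 proteins of glucose uptake, glycolysis, lactate and pyruvate metabolism, glycogen, gluconeogenesis, the pentose phosphate pathway and the glycerol phosphate shuttle. They were measured in the aorta of adult male C57BL/6J mice given rosiglitazone, an agonist of the nuclear receptor PPARγ, for 21 days at a daily dose of 25 mg/kg, and in aorta of mice of the same strain and sex given vehicle over the same time. There were 2 arrays of pooled aortic RNA in each group, numbered 1 and 2 for rosiglitazone and 3 and 4 for vehicle. Whether each array had its own pool of mice is not stated in the labels, and p-values therefore describe the variation between arrays, part or all of which may be technical. Members were matched by gene symbol in the probe table of the platform. Of the 41 members, 36 had a probe set that carries that symbol alone, and 5 (Gpi1, Eno1, Pdk2, Pygl and G6pdx) had none listed. Gapdh was measured by control probe sets only, which left 35 members on 45 other probe sets, of 12488 probe sets on the array. The brightest probe set stands for a gene where several were present.

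Glycolysis splits glucose into pyruvate in the cytosol. Pyruvate is then reduced to lactate or is oxidised by the mitochondrial pyruvate dehydrogenase complex, which pyruvate dehydrogenase kinases switch off. Glycogen stores glucose, the pentose phosphate pathway draws glucose 6-phosphate away to make NADPH and ribose, and glycerol 3-phosphate made from a glycolytic intermediate forms the backbone of triglyceride. Vascular smooth muscle is known for high lactate production even with oxygen present, and the fat around the aorta takes up glucose in response to insulin.

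The values are intensities on a linear scale, of which those under 148 were raised to 148, the floor, before log2 was taken. Members whose mean intensity on that scale lay at or above 414 were tested, and these were 27 of the 35. All 4 arrays had a trimmed mean of 1501, with medians of 591 and 620 on the rosiglitazone arrays, against 648 and 635 on the vehicle arrays. Smooth muscle markers were present on every array, though 9 of 9 tested lay below 0, with a summed intensity of 58614 and 63486 on the rosiglitazone arrays, against 120186 and 144098 on the vehicle arrays. Markers of brown adipocytes, cells of the fat around the vessel, were also bright, at 412321 and 450320 on the rosiglitazone arrays, against 296339 and 291518 on the vehicle arrays. In RNA from whole tissue, fewer cells of a type and less RNA per cell cannot be told apart.

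No member (0 of 27 genes, 0 of 32 probe sets) had an adjusted p under 0.05 in limma, a threshold that 0.364% of the 7134 probe sets tested passed. The log2 fold change lay within 0.25 of 0 for 14 of the 27 members, and for 37.3% of all genes tested, dim ones included. That share was not taken among genes as bright as the members. At an unadjusted p under 0.05 in limma, 4 members were higher with rosiglitazone and 0 were lower, where 5.03% and 5.93% of the 5466 genes tested were. The 4 were Pck1, Ldhb, Gys1 and Pgam1, with log2 fold changes from 0.55 to 0.66. Both rosiglitazone arrays exceeded both vehicle arrays for 9 members, against 19.1% of genes tested, and lay below both for 2, against 22.0%. In all, 20 members lay above 0 and 7 below. Their median log2 fold change was 0.12, while 48.2% of genes tested lay above 0 with a median of -0.02. The members' median was 0.20 without rosiglitazone replicate 2 and 0.19 without vehicle replicate 4.

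These transcripts are abundant. When the 5466 genes were divided by mean intensity into 3 equal groups, 23 of the 27 members fell in the brightest group, at an intensity of 2300 or more. Of the 1822 genes in that group 54.2% lay above 0, 27.4% were higher on both rosiglitazone arrays and 183 were higher with an unadjusted p under 0.05. The corresponding numbers of the 23 members were 19, 9 and 4. The balance of directions also moved with the scaling. With each array centred on its median, 23 members lay above 0 and 4 below, with a median of 0.21, beside 55.2% of genes above 0. After quantile normalization the split was 16 above and 11 below, with a median of 0.08, beside 50.5% of genes. With the floor at the 40th percentile all 35 members entered, 20 of them above 0, and their median was 0.04. That floor (414) equals the filter, so a gene under it on every array entered with a log2 fold change of exactly 0. Slc2a1, Pgam2, Eno2, Pygm and Fbp2 were such members, so those not above 0 were not all below it. The median under this setting is pulled to 0 by such genes.

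**Figure D1:**
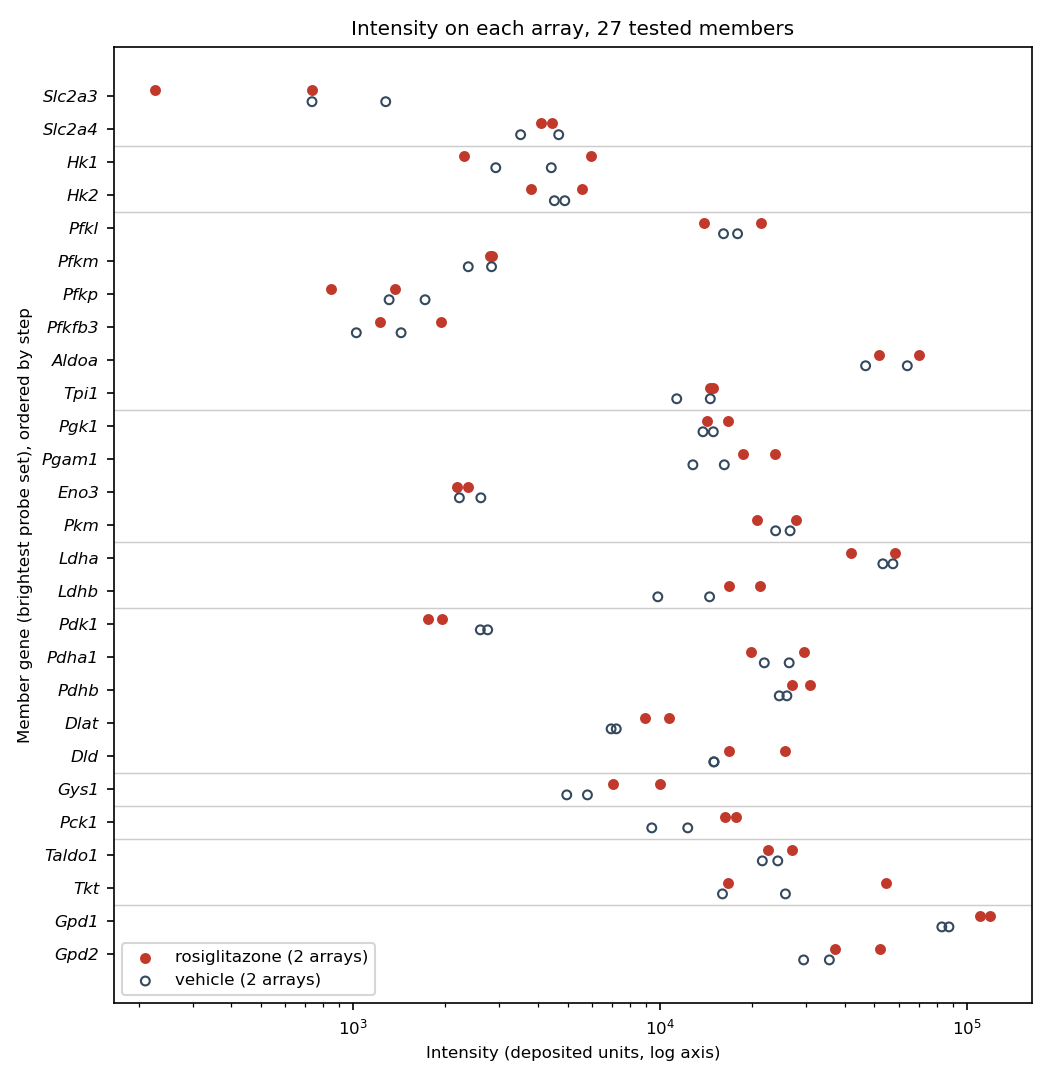
Deposited intensity of each tested member on each array, on a log axis. Filled points are the 2 rosiglitazone arrays and open points the 2 vehicle arrays, and lines separate the steps of the pathways. The points of most genes interleave, while those of Pck1, Gys1, Ldhb, Pgam1, Dlat, Dld, Pdhb, Gpd1 and Gpd2 lie further right with rosiglitazone.

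The 250 bases upstream of the annotated start of the 4 members with an unadjusted p under 0.05 are shown here, since they differed in the same direction. They come from the RefSeq promoter table of GRCm38.p6. Capitals mark matches, on either strand, to any of 5 motifs. The half-site of nuclear receptors such as PPARγ was searched as AGGTCA. The core that hypoxia-inducible factors bind was searched as ACGTG, and it also lies within the E-box, searched as CACGTG. The half-site of the cAMP response element was searched as TGACG, which can share bases with the hypoxia core. The GC box that Sp1 binds was searched as GGGCGG.
Pgam1 (chr19:41911621-41911870, plus strand): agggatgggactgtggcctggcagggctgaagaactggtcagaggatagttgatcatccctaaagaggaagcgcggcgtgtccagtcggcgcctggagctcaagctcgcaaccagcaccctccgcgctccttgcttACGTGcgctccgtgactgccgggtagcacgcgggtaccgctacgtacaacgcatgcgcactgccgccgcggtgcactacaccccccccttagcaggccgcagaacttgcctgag
Ldhb (chr6:142507958-142508207, minus strand): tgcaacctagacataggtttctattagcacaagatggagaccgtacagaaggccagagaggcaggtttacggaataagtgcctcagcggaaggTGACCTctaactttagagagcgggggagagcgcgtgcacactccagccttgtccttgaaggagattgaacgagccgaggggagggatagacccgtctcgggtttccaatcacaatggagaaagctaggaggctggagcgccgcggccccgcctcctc
Gys1 (chr7:45434589-45434838, plus strand): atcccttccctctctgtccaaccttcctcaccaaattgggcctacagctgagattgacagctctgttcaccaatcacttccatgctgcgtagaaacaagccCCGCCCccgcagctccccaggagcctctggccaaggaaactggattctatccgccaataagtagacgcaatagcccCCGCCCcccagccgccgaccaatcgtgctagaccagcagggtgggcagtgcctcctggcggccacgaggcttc
Pck1 (chr2:173152823-173153072, plus strand): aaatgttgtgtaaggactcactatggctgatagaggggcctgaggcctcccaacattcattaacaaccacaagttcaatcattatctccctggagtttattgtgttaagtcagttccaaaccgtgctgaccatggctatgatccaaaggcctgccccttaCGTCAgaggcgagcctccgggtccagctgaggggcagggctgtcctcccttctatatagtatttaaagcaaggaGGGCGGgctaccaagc
No motif was in all 4 windows, and only the GC box was in more than 1, those of Gys1 and Pck1. Pgam1 held 1 ACGTG, found in 16.6% of 32851 such windows in the table, and Ldhb held 1 AGGTCA match, found in 14.0%. Gys1 held 2 GC boxes and Pck1 held 1, a motif found in 32.7% of windows. Pck1 also held 1 TGACG match, found in 17.8%. CACGTG, found in 6.02%, was in none of the 4 windows. The table had windows for 38 of the 41 members, and of their 53 windows 8 held AGGTCA, 19 ACGTG, 5 CACGTG, 11 TGACG and 27 GGGCGG. A match is a description of the letters and not a bound site.

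Glucose enters these cells through carriers. Slc2a4, the carrier that insulin brings to the surface of muscle and fat cells, had 4106 and 4439 on the rosiglitazone arrays, against 4679 and 3516 on the vehicle arrays, and both rosiglitazone values lay between the vehicle values. Its log2 fold change was 0.07 (standard error 0.25, limma adjusted p = 0.947), and its second probe set was under the floor on every array. Slc2a3, a high-affinity carrier prominent in neurons and in blood cells, had 733 and 227 on the rosiglitazone arrays, against 1278 and 735 on the vehicle arrays. The groups were thus separated by 2 intensity units, and the log2 fold change was -1.25 (standard error 0.71, limma adjusted p = 0.576). Leaving out rosiglitazone replicate 2 gave -0.40, and leaving out rosiglitazone replicate 1 gave -2.09. The rosiglitazone values averaged just below the filter of 414 on the log2 scale, so Slc2a3 was tested only through its vehicle values. A dimmer probe set of Slc2a3 that was not tested read 177 and 144 on the rosiglitazone arrays, against 884 and 219 on the vehicle arrays. Slc2a1, the widespread basal carrier, was too dim to be tested, at 152 and 59 on the rosiglitazone arrays, against 319 and 207 on the vehicle arrays. Markers of macrophages were lower on the same arrays, with 9 of 9 tested below 0 and summed intensities of 20797 and 20720 on the rosiglitazone arrays, against 58974 and 63720 on the vehicle arrays. Neutrophil markers summed to 11824 and 9608 on the rosiglitazone arrays, against 133033 and 198528 on the vehicle arrays, with 8 of 9 tested below 0. Nearly all of that gap came from S100a8 and S100a9, which encode the paired subunits of calprotectin, and without these 2 the sums were 10133 and 6526 on the rosiglitazone arrays, against 11605 and 11077 on the vehicle arrays. Of the 7 other neutrophil markers tested, 2 were lower on both rosiglitazone arrays and 5 overlapped. Without Cd14, its brightest gene, the macrophage list summed to 17301 and 17078 on the rosiglitazone arrays, against 31445 and 36890 on the vehicle arrays. Neither list had a marker under the floor on all 4 arrays, and their part in the values of Slc2a3 and Slc2a1 was not tested.

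The hexokinases, which trap glucose as glucose 6-phosphate, showed no separation of the groups. Hk2, the insulin-regulated form of muscle and fat, had 5580 and 3800 on the rosiglitazone arrays, against 4530 and 4898 on the vehicle arrays. Its second probe set was under the floor throughout. Hk1, the widespread form, had 5952 and 2295 on the rosiglitazone arrays, against 4426 and 2918 on the vehicle arrays. The 2 rosiglitazone arrays differed more for Hk1 than the groups did, with an SD of 0.97 on the log2 scale with rosiglitazone and 0.42 with vehicle, and a log2 fold change of 0.04.

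In upper glycolysis all 6 tested members had overlapping groups on the brightest probe set, with log2 fold changes from -0.48 to 0.35. The phosphofructokinases commit sugar to glycolysis, and their liver form Pfkl (0.02) and muscle form Pfkm (0.12) were close to 0. The platelet form Pfkp had 849 and 1367 on the rosiglitazone arrays, against 1311 and 1717 on the vehicle arrays (-0.48, standard error 0.40, limma adjusted p = 0.726). Its second probe set read 847 and 1088 on the rosiglitazone arrays, against 1243 and 1175 on the vehicle arrays, lower on both rosiglitazone arrays (-0.33). Pfkfb3, which makes the activator of phosphofructokinase, had 1941 and 1226 on the rosiglitazone arrays, against 1434 and 1025 on the vehicle arrays (0.35, limma adjusted p = 0.799). Its dimmer probe set was not tested and differed in sign, at 52 and 19 on the rosiglitazone arrays, against 434 and 94 on the vehicle arrays, with 3 of these values under the floor. Aldoa, the main aldolase of muscle, gave 0.14 and 0.18 on its 2 probe sets, both of a type that can share sequence with related transcripts. Aldoc, the brain aldolase, was dim, with both rosiglitazone arrays under the floor and 215 and 802 with vehicle. The triose phosphate isomerase Tpi1 had 14521 and 14915 on the rosiglitazone arrays, against 11344 and 14592 on the vehicle arrays (0.19, limma adjusted p = 0.791).

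Of the 4 lower glycolysis members tested, which leave out Gapdh, 1 had separated groups. Of all genes tested, 19.1% were higher on both rosiglitazone arrays and 22.0% were lower on both. Pgam1, the phosphoglycerate mutase of most tissues, had 23721 and 18679 on the rosiglitazone arrays, against 16210 and 12807 on the vehicle arrays. Its upstream window was 1 of 19 among 53 member windows with an ACGTG, which 16.6% of all windows held. The rosiglitazone values were both higher, by 1.46-fold (log2 fold change 0.55, standard error 0.22), with an unadjusted p of 0.0357 and an adjusted p of 0.413 in limma. The muscle mutase Pgam2 was not tested, at 43 and 212 on the rosiglitazone arrays, against 117 and 33 on the vehicle arrays. Pgk1, the phosphoglycerate kinase, had a log2 fold change of 0.10 and the muscle enolase Eno3 had -0.08, both with overlapping groups. The neuronal enolase Eno2 was too dim to be tested, at 242 and 380 on the rosiglitazone arrays, against 331 and 48 on the vehicle arrays. Pkm, the pyruvate kinase of muscle and most other tissues, had 20686 and 27700 on the rosiglitazone arrays, against 26559 and 23826 on the vehicle arrays (-0.07), and -0.26 on its second probe set. Both Pkm probe sets are of types that several transcripts can share.

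Gapdh, the glyceraldehyde phosphate dehydrogenase often used as a loading reference, was read by control probe sets at the 3' end, the middle and the 5' end of its transcript. The 3' set gave 110555 and 113628 on the rosiglitazone arrays, against 136729 and 122354 on the vehicle arrays, and both rosiglitazone arrays were lower. Its log2 fold change was -0.21 (standard error 0.21, limma with the Gapdh control probe sets added, adjusted p = 0.784). The middle and 5' sets overlapped between the groups, with log2 fold changes of -0.05 and -0.02. The 5' set read 12577 and 10537 on the rosiglitazone arrays, against 12339 and 11021 on the vehicle arrays. It was thus far dimmer than the 3' set on every array. What this gap between the ends says of RNA quality was not tested, and it bears on all values here.

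The lactate dehydrogenase subunits had values on either side of 0. Ldhb, the heart-type subunit found in oxidative tissue, had 16853 and 21221 on the rosiglitazone arrays, against 9843 and 14515 on the vehicle arrays. Its upstream window was 1 of 8 among 53 member windows with a nuclear receptor half-site, which 14.0% of all windows held. The rosiglitazone values were both higher, by 1.58-fold (log2 fold change 0.66, standard error 0.25, 95% interval 0.11 to 1.22), with an unadjusted p of 0.0243 and an adjusted p of 0.368 in limma. With 1 array left out it ran from 0.38 to 0.94. Ldha, the muscle-type subunit of lactate-producing tissue, had 41899 and 58155 on the rosiglitazone arrays, against 57446 and 53262 on the vehicle arrays, with overlap and a log2 fold change of -0.16 (standard error 0.22, limma adjusted p = 0.840). The difference between the 2 subunits' fold changes was not tested. A second Ldhb probe set was under the floor on 3 arrays, at 39 and 35 on the rosiglitazone arrays, against 326 and 21 on the vehicle arrays.

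For the pyruvate dehydrogenase complex, 3 of the 4 measured subunit genes were higher on both rosiglitazone arrays, as were 19.1% of all genes tested and 27.4% of those in the brightest group, where these 4 lay. Dlat, the acetyl-transferring E2 core, had 8914 and 10704 on the rosiglitazone arrays, against 7207 and 6933 on the vehicle arrays (log2 fold change 0.47, standard error 0.21, limma adjusted p = 0.473). A dimmer probe set of Dlat had 854 and 456 on the rosiglitazone arrays, against 855 and 578 on the vehicle arrays, with overlapping groups (-0.17). Dld, the E3 subunit that other dehydrogenase complexes share, had 25624 and 16742 on the rosiglitazone arrays, against 14983 and 15014 on the vehicle arrays (0.47, standard error 0.24, limma adjusted p = 0.536), and 0.16 without rosiglitazone replicate 1. Pdhb, the E1 beta subunit, had 26920 and 30735 on the rosiglitazone arrays, against 24484 and 25925 on the vehicle arrays, a small difference of 0.19. Pdha1, the E1 alpha subunit on which the kinases act, had 29513 and 19870 on the rosiglitazone arrays, against 26374 and 21885 on the vehicle arrays, with overlap and 0.01. Pdk1, a kinase that inactivates the complex, had 1749 and 1955 on the rosiglitazone arrays, against 2599 and 2746 on the vehicle arrays. The rosiglitazone values were both lower for Pdk1, by 1.44-fold (-0.53, standard error 0.28, limma adjusted p = 0.552). With 1 array left out it ran from -0.61 to -0.45, and leaving out an array cannot turn the sign where groups are separated.

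**Figure D2:**
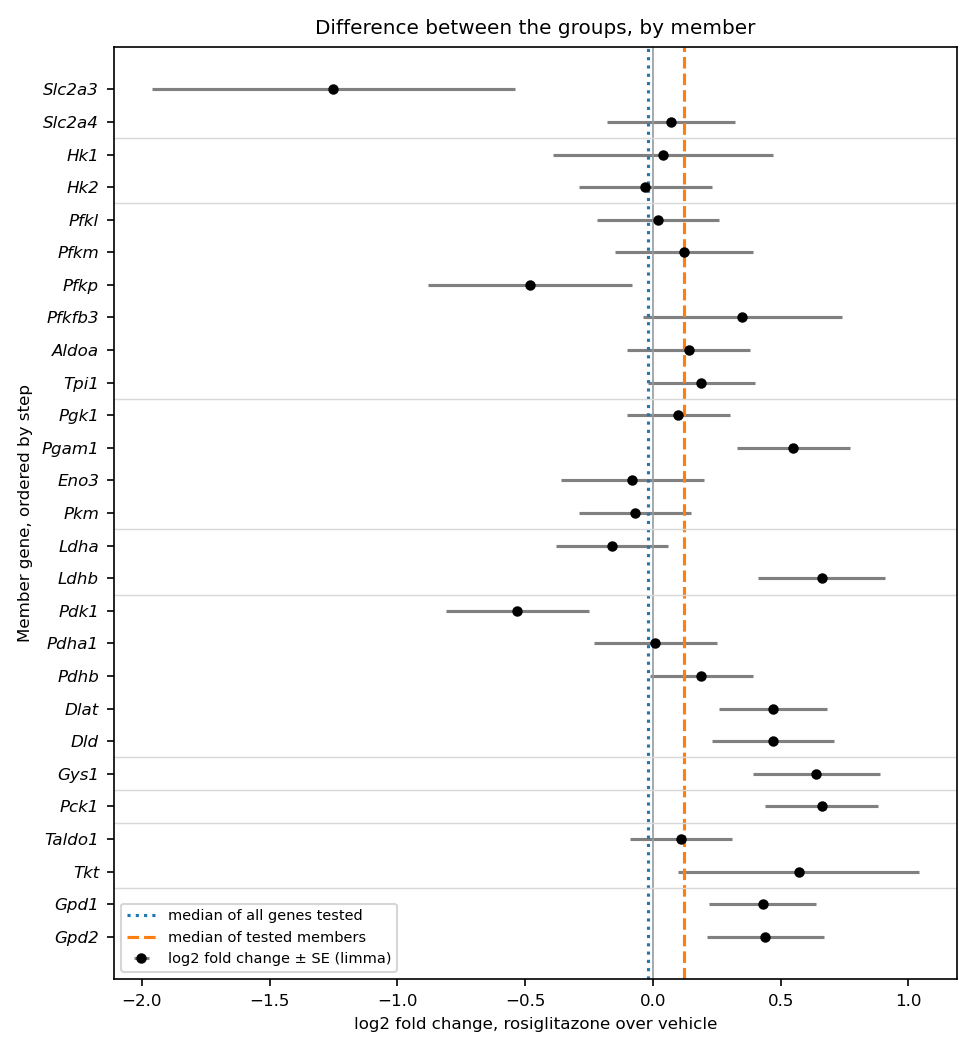
Log2 fold change of rosiglitazone over vehicle for each tested member, with the limma standard error as a bar. The dotted line is the median of all genes tested (-0.02) and the dashed line that of the members (0.12). Pck1 and Ldhb stand furthest to the right, both at 0.66, and Slc2a3 furthest to the left at -1.25 with the widest bar.

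Gys1, the glycogen synthase of muscle and fat, was the only glycogen member bright enough to be tested. It had 9981 and 7040 on the rosiglitazone arrays, against 4971 and 5805 on the vehicle arrays. The rosiglitazone values were both higher, by 1.56-fold (log2 fold change 0.64, standard error 0.25, 95% interval 0.08 to 1.20), with an unadjusted p of 0.0288 and an adjusted p of 0.384 in limma. With 1 array left out it ran from 0.39 to 0.89. Pygm, the muscle glycogen phosphorylase, was under the floor on every array. Pgm2, a phosphoglucomutase by name, was not tested, at 336 and 225 on the rosiglitazone arrays, against 317 and 543 on the vehicle arrays. Skeletal muscle markers summed to 16840 and 18278 on the rosiglitazone arrays, against 16746 and 16356 on the vehicle arrays. Of these markers 5 of 8 tested lay above 0, with a median of 0.01, and 0 of 12 were under the floor on all 4 arrays. Without Pvalb, the brightest, the sums overlapped, at 9975 and 10242 on the rosiglitazone arrays, against 9718 and 10354 on the vehicle arrays.

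Pck1, the cytosolic phosphoenolpyruvate carboxykinase, starts gluconeogenesis in liver and makes glycerol 3-phosphate for triglyceride in fat. It had 17647 and 16350 on the rosiglitazone arrays, against 12321 and 9407 on the vehicle arrays. The rosiglitazone values were both higher, by 1.58-fold (log2 fold change 0.66, standard error 0.22, 95% interval 0.17 to 1.15), with an unadjusted p of 0.0136 in limma, the smallest among the 27 members, and an adjusted p of 0.295. With 1 array left out it ran from 0.46 to 0.85. The fructose bisphosphatases, the later enzymes of gluconeogenesis, were too dim to be tested. Fbp1 had 103 and 160 on the rosiglitazone arrays, against 476 and 93 on the vehicle arrays, and Fbp2 had 108 and 129 on the rosiglitazone arrays, against 142 and 200 on the vehicle arrays.

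On their brightest probe sets, the 2 enzymes that make and use glycerol 3-phosphate, Gpd1 and Gpd2, were higher on both rosiglitazone arrays. So were 19.1% of all genes tested and 27.4% of those in the brightest group, where both lay. Neither had an unadjusted p under 0.05 in limma. Gpd1, the cytosolic dehydrogenase that makes it, was the brightest tested member, with 119240 and 110802 on the rosiglitazone arrays, against 82908 and 87452 on the vehicle arrays (log2 fold change 0.43, standard error 0.21, limma adjusted p = 0.495). Its second probe set read 5187 and 8682 on the rosiglitazone arrays, against 6071 and 6654 on the vehicle arrays, with overlap and 0.08. Gpd2, the mitochondrial partner that completes the shuttle, had 37195 and 51981 on the rosiglitazone arrays, against 29396 and 35656 on the vehicle arrays (0.44, standard error 0.23, limma adjusted p = 0.542). The only Gpd2 probe set is of a type that can share sequence with related transcripts. Brown adipocyte markers were higher on the same arrays, with 6 of 7 tested above 0, a median of 0.44 and 0 of 9 under the floor on all 4 arrays. Most of the gap in their sum came from Cidea and Ucp1. Without these 2 the sums were 73697 and 90778 on the rosiglitazone arrays, against 52646 and 58681 on the vehicle arrays. Of the 5 other brown adipocyte markers tested, 3 were higher on both rosiglitazone arrays, 1 (Dio2) was lower on both and 1 overlapped. White adipocyte markers summed to 254578 and 285263 on the rosiglitazone arrays, against 197087 and 215016 on the vehicle arrays, with 3 of 6 tested above 0, a median of -0.03 and 0 of 6 under the floor on all 4 arrays. Most of that gap came from Adipoq. Without it the sums were 89024 and 90195 on the rosiglitazone arrays, against 72007 and 78194 on the vehicle arrays. Of the 5 other white adipocyte markers tested, 1 was higher on both rosiglitazone arrays, 1 was lower on both and 3 overlapped. The part of the fat cell markers in the values of Pck1, Gys1, Gpd1, Gpd2 and the pyruvate dehydrogenase subunits was not tested.

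**Figure D3:**
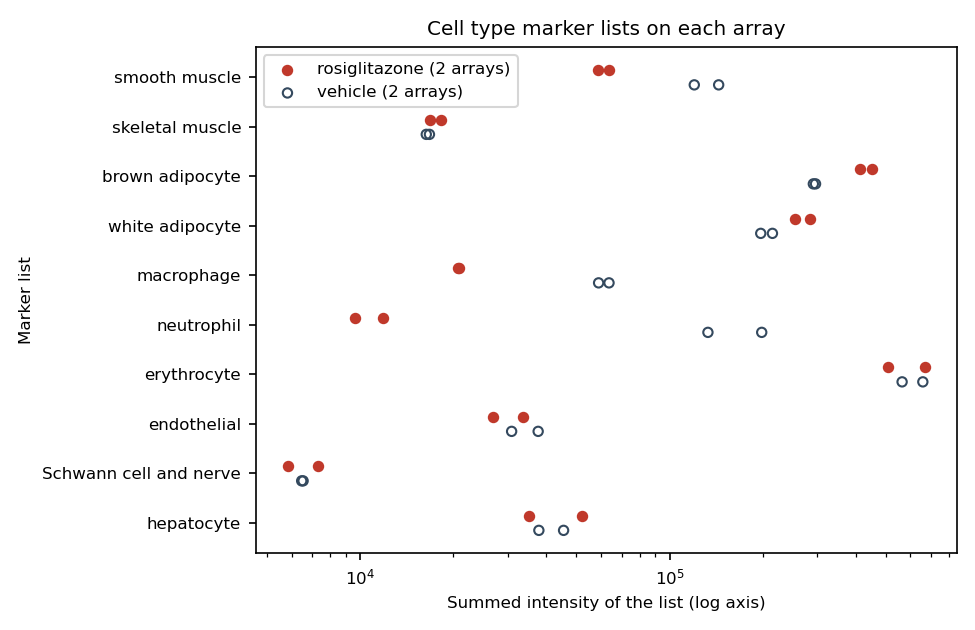
Summed intensity of each marker list on each array, on a log axis, with filled points for rosiglitazone and open points for vehicle. Brown and white adipocyte sums are higher on both rosiglitazone arrays, while smooth muscle, macrophage and neutrophil sums are lower on both, the neutrophil gap resting almost wholly on S100a8 and S100a9. Most of the brown adipocyte gap lies in Cidea and Ucp1, and most of the white adipocyte gap in Adipoq. The erythrocyte sum, most of it Hba-a1, overlaps.

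The pentose phosphate enzymes Taldo1 and Tkt link the pathway back to glycolysis. Taldo1, the transaldolase, had 22486 and 26883 on the rosiglitazone arrays, against 21561 and 24212 on the vehicle arrays (0.11). Tkt, the transketolase, had 54724 and 16623 on the rosiglitazone arrays, against 25645 and 15991 on the vehicle arrays, so that 1 rosiglitazone array was far above the other 3. Its log2 fold change was 0.57 (standard error 0.47, limma adjusted p = 0.722). It was 1.43 without rosiglitazone replicate 2 (adjusted p = 0.0449) and -0.28 without rosiglitazone replicate 1 (adjusted p = 0.759).

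**Figure D4:**
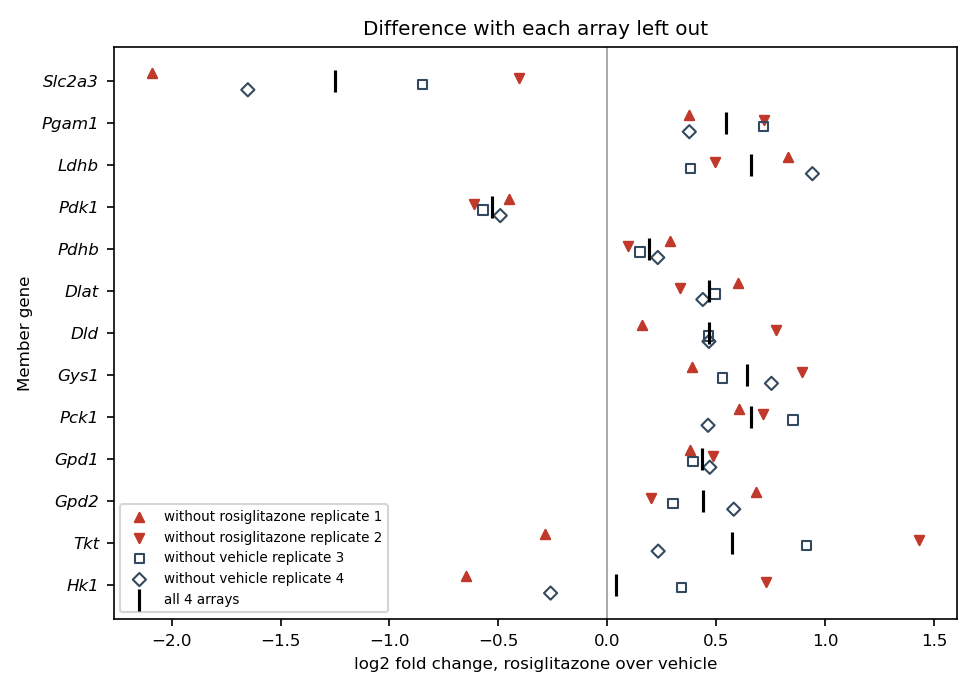
Log2 fold change of rosiglitazone over vehicle with each array left out, for the 11 members with separated groups and for Tkt and Hk1. Vertical ticks mark the value with all 4 arrays. The symbols of Tkt run from -0.28 to 1.43, those of Hk1 from -0.65 to 0.73 and those of Gpd1 from 0.38 to 0.49. Leaving out an array cannot turn the sign of the 11 with separated groups.

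Other genes of the same pathways were followed through a list of 78, of which 52 had a probe set and 34 were tested. None (0) had an adjusted p under 0.05 in limma, while at an unadjusted p under 0.05 there were 3 higher and 3 lower of the 34, where 0.384%, 5.03% and 5.93% of all genes tested passed these thresholds. Of the 34, 21 lay above 0 and 13 below, with a median of 0.19. The 6 with an unadjusted p under 0.05 had groups that did not overlap, which a small p with 2 arrays a group nearly requires. Of the 34, 11 were higher on both rosiglitazone arrays and 5 were lower on both, beside 19.1% and 22.0% of all genes tested. Hif1a, the oxygen-sensitive factor that drives glycolytic genes in low oxygen, had 4086 and 3026 on the rosiglitazone arrays, against 7727 and 8325 on the vehicle arrays (log2 fold change -1.19, standard error 0.24, limma adjusted p = 0.0799). A second probe set of Hif1a read 3102 and 2265 on the rosiglitazone arrays, against 7198 and 4676 on the vehicle arrays (-1.13, limma adjusted p = 0.170). Both Hif1a probe sets are of a type that can share sequence with related transcripts. The median log2 fold change was -1.12 for smooth muscle markers, -1.09 for macrophage markers and -0.52 for neutrophil markers. The part of these 3 lists in the Hif1a values was not tested. Bpgm, which makes the 2,3-bisphosphoglycerate of red cells and is also an erythrocyte marker, had 5535 and 5387 on the rosiglitazone arrays, against 10240 and 10703 on the vehicle arrays (-0.94, limma adjusted p = 0.105). Erythrocyte markers overlapped in their sum, most of which is the hemoglobin gene Hba-a1, at 507470 and 669832 on the rosiglitazone arrays, against 564339 and 658452 on the vehicle arrays. Without Hba-a1 the sums, Bpgm included, were 39983 and 53409 on the rosiglitazone arrays, against 70476 and 89272 on the vehicle arrays. Of the 4 erythrocyte markers tested other than Bpgm, Hba-a1 (0.02) and Slc4a1 (0.65) overlapped, while Hbb-b2 (-0.78) and Alas2 (-0.73) were lower on both rosiglitazone arrays. The part of these markers in the values of Bpgm and Pklr was not tested.

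Pklr, the pyruvate kinase of liver and red cells, had 301 and 583 on the rosiglitazone arrays, against 2082 and 1089 on the vehicle arrays (-1.85, limma adjusted p = 0.249), on a probe set that several transcripts can share. Its second probe set was under the floor on every array. Pgls, the 6-phosphogluconolactonase of the pentose phosphate pathway, had 9316 and 6024 on the rosiglitazone arrays, against 3674 and 2813 on the vehicle arrays (1.22, standard error 0.28, limma adjusted p = 0.116). Pgm1, a phosphoglucomutase by name, had 27330 and 27769 on the rosiglitazone arrays, against 17455 and 16809 on the vehicle arrays (0.69, standard error 0.19, limma adjusted p = 0.196). Arrays of 1 group agreed closely for Pgm1, which the choice of genes by a small unadjusted p favours. Pmm2, a phosphomannomutase of glycosylation, had 1288 and 1427 on the rosiglitazone arrays, against 432 and 262 on the vehicle arrays (2.01, standard error 0.55, limma adjusted p = 0.196). Its vehicle values averaged below the filter of 414 on the log2 scale. Pmm2 was thus tested only through the group where it was high. Gbe1, the glycogen branching enzyme (0.82), and Gyg, the glycogenin that primes glycogen (0.41), were also higher on both rosiglitazone arrays. The Gyg probe set is of a type that can share sequence with related transcripts. Ugp2, which makes the UDP-glucose for glycogen (-0.65), was lower on both rosiglitazone arrays. Gbe1, Gyg and Ugp2 were chosen after their values were seen and had adjusted p from 0.576 to 0.643 in limma. Pdk4, the kinase of the pyruvate dehydrogenase complex that fatty acids induce, had 39905 and 31627 on the rosiglitazone arrays, against 29865 and 31748 on the vehicle arrays, with overlap and 0.21 (limma, adjusted p = 0.779), and was likewise chosen after its values were seen.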

How the data were processed

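RNA was measured on Affymetrix MG-U74Av2 arrays, identified from the platform number in the header of the probe table. Neither the software nor the background correction behind the deposited intensity values is given in the sources used here, and the deposited table holds no detection calls. The values are linear whole numbers with an equal trimmed mean on each array, so a rise of many abundant transcripts in a group would lower the others in it. The tests left out 66 control probe sets. Values under the 20th percentile (148) were raised to it, log2 was taken, and probe sets with a mean at or above the 40th percentile (414) were compared with limma 3.58.1 in R 4.3.3 (two-sided; lmFit, then eBayes with a trend on intensity), and p-values were adjusted by Benjamini-Hochberg over 7134 probe sets. Array medians differed by at most 0.13 on the log2 scale, so no further scaling was applied. An exact permutation test over 4 arrays cannot go below 0.333. The number of arrays limits the precision.

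Symbols came from the platform's probe table, and the identifier was found in the GRCm38.p6 gene table for 10817 of 10833 probe sets with 1 symbol. The members and all lists were chosen with earlier results of these data known. All members are named. Those with groups that do not overlap and a change of at least 1.5-fold, with probe sets that differ in sign, or alone at their step are given with their array values, and of the other pathway genes the 6 with the smallest unadjusted p among those whose groups do not overlap. Alternatives were another floor, filter, scaling or variance model, the mean over probe sets, and leaving out each array. A fit with the Gapdh control probe sets added, and marker sums without the brightest genes of a list, were chosen after seeing the data.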

Additional observations from a re-analysis of the deposited data

How the results depend on the processing

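No paired analysis was possible because the groups share no replicate number. Over all probe sets, 26 had an adjusted p under 0.05 in limma, against 17 with each array centred, 7 with no intensity trend, 0 with the floor at the 40th percentile or with no filter (unadjusted p under 0.05 for 933 and 1202 of 12422 probe sets), and from 1 to 78 with 1 array left out. Among members the count was 0 under every other alternative run and from 0 to 1 with 1 array left out, the 1 being Tkt without rosiglitazone replicate 2. Hif1a then had an adjusted p of 0.0444 without rosiglitazone replicate 1, and Pgls 0.0396 without rosiglitazone replicate 2. The median of the other pathway genes was 0.00 with the floor at the 40th percentile, where genes under that floor on every array enter at exactly 0. With no filter, 34 of 52 lay above 0. Of 27 members, 13 changed sign at least once. The other 14 did not, but leaving out an array cannot turn the sign of the 11 with separated groups, and the filters and the variance model leave a fold as it is. With 1 array left out, the log2 fold change ran from -0.13 to 0.28 for Slc2a4, -0.65 to 0.73 for Hk1, -0.31 to 0.24 for Hk2, -0.28 to 0.33 for Pfkl, -0.0046 to 0.25 for Pfkm, -0.090 to 0.36 for Aldoa, -0.015 to 0.21 for Pgk1, -0.20 to 0.036 for Eno3, -0.28 to 0.14 for Pkm, -0.40 to 0.072 for Ldha, -0.27 to 0.30 for Pdha1, -0.023 to 0.23 for Taldo1 and -0.28 to 1.43 for Tkt. With each array centred it was 0.051 for Hk2, 0.0032 for Eno3 and 0.012 for Pkm. After quantile normalization it was -0.080 for Pfkl, -0.0076 for Pgk1, -0.068 for Pdha1 and -0.049 for Taldo1. The cause of these changes was not tested. With 1 array left out, the lone array of a group is assumed to vary like the others. With no detection calls used here, how far a dim probe set stood above background is unknown.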
